A study of Mus musculus with 20 samples.

Results

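The guanylate-binding and immunity-related GTPases described here are 10 genes, of 53028 in the table of mouse liver RNA. They are Gbp2, Gbp3, Gbp6, Gbp7, Gbp8, Gbp9 and Gbp10, and the immunity-related Igtp, Irgm1 and Irgm2. The family was chosen by measured values of these same livers, after Gbp6, Gbp10 and Irgm2 were seen to be lower in total RNA of SNORA73 LNA livers when mice 9 and 10 were left out. All 10 passed the filter on low counts in both kinds of RNA, so no member was lost to it. The values in total RNA are therefore given as a description, and the tests concern polysome RNA and its relation to total RNA.

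Livers of 10 male C57BL/6J mice were analysed. Mice 1, 2, 3, 8 and 9 had received an antisense oligonucleotide with locked nucleic acids (LNA) against GFP, a sequence that mice do not carry, as control. Mice 4, 6, 10, 11 and 12 had received the SNORA73 LNA. The sample labels spell the target of that LNA Snora37, while the paper and the design text name SNORA73, and the labels do not say which of the SNORA73 LNAs was used. Per the design text, either LNA was given by intraperitoneal injection at 3 mg/kg, 3 times on alternate days, to mice 8 weeks old. Livers were taken 2 days after the last dose. Per the paper, the mice were fed standard chow, and its methods for liver ribosomes give an age of 10 weeks. Those methods also state that cycloheximide was injected into the tail vein shortly before the livers were taken. Each liver gave 1 library of total RNA from the lysate and 1 of RNA from its polysome fractions, both selected for polyadenylated RNA. Per the paper, polysome RNA was precipitated and treated with heparinase, and the 2 kinds of RNA were cleaned with different kits. Differences between polysome and total RNA cannot be told apart from this preparation. Libraries held 20005389 to 42023390 counts in total RNA and 14852951 to 33824659 in polysome RNA. The median was lower with SNORA73 LNA than with GFP LNA, at 22543046 against 31996106 in total and 20084750 against 23851776 in polysome RNA.

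The targeted snoRNAs could not be read from these libraries. The highest count of Snora73a was 1 among total and 2 among polysome libraries, and that of Snora73b was 4 in either, while the host transcript Snhg3 had 61 to 201 counts in total and 37 to 134 in polysome RNA. Mouse 9 of the GFP LNA group and mouse 10 of the SNORA73 LNA group stood apart from their groups for the genes described here. The paper used 4 mice per group. It left 1 of each out, without naming it, because it did not cluster with its group in a principal component analysis. Whether these were mice 9 and 10 is not stated. Values are given for all 10 mice and again without mice 9 and 10.

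Guanylate-binding proteins and immunity-related GTPases are large GTP-binding proteins that cells make in response to interferons, above all to interferon gamma. Many of them assemble on the membrane of vacuoles that hold bacteria or parasites and take part in breaking that membrane. Irgm1, Irgm2 and Igtp (also named Irgm3) form the regulatory branch of the immunity-related GTPases, which sits on the cell's own membranes and holds the effector branch inactive there. In the liver, hepatocytes, Kupffer cells and endothelial cells can all express such genes. In bulk RNA, fewer cells of a type and less RNA per cell cannot be told apart.

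The genes lie in 3 groups, with positions from RefSeq on GRCm38.p6. Gbp7 (chromosome 3, 142530336 to 142550151), Gbp3 (142560016 to 142573213) and Gbp2 (142620663 to 142638008) are neighbours on chromosome 3. Gbp8 (chromosome 5, 105012513 to 105053609), Gbp9 (105076464 to 105110357), Gbp10 (105215699 to 105239533) and Gbp6 (105270702 to 105295871) lie on chromosome 5. Irgm1 (chromosome 11, 48865245 to 48871420) lies apart from the adjoining pair Igtp (58199556 to 58207592) and Irgm2 (58214977 to 58222783) on chromosome 11.

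Promoters of genes induced by interferon gamma often carry gamma-activated sequences (GAS), and those induced by type I interferon often carry interferon-stimulated response elements (ISRE). The RefSeq promoter table of GRCm38.p6 held entries for Gbp2, Gbp3, Gbp7, Igtp, Irgm1 and Irgm2. The 250 bases before each start were searched on both strands for the GAS letters TTCNNNGAA and for an ISRE core of GAAA, any 2 bases and GAAA. The ISRE core was found in 6 of 6 entries, against 2.98% of 32851 promoter entries in the table. GAS letters were found in 3 of 6, in Gbp7, Igtp and Irgm2, against 7.02% of all entries. Both motifs occurred in those 3, against 0.332% of all entries. A match of letters is a description and not a bound site.

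The 120 bases up to the start are printed for 5 of the 6, 5′ to 3′ on the strand of the gene, with matches in capitals. Igtp and Irgm2 are shown because they lie side by side and carry the same arrangement, a GAS match followed by an ISRE core 2 bases on. Igtp lies at chr11:58199436-58199555 (plus strand) and Irgm2 at chr11:58214857-58214976 (plus strand).
Igtp: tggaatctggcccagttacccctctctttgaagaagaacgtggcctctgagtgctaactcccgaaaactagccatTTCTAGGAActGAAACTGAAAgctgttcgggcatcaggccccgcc
Irgm2: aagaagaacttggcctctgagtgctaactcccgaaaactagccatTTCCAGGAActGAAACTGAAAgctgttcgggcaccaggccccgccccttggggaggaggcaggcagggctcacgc
Over the whole entries, Igtp and Irgm2 were identical in 197 of 286 aligned columns (68.9%), while every other pair of the 6 was identical in 47.6% to 55.4%.

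Irgm1, Gbp7 and Gbp2 are shown for contrast. Irgm1 (chr11:48871421-48871540, minus strand) carries overlapping ISRE cores and no GAS letters. Gbp7 (chr3:142530216-142530335, plus strand) carries GAS letters at 2 places, and its ISRE core and that of Gbp2 (chr3:142620543-142620662, plus strand) read on the opposite strand.
Irgm1: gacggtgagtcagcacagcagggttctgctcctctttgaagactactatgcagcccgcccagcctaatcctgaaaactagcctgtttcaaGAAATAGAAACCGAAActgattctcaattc
Gbp7: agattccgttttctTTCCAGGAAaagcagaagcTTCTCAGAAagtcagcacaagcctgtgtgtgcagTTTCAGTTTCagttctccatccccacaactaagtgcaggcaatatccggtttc
Gbp2: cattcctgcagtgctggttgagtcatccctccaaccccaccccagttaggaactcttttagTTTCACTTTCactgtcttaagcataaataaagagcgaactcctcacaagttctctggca

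In total RNA the 10 genes tended to be lower with SNORA73 LNA than with GFP LNA in 8 mice, and mice 9 and 10 ran against their groups. Levels are given as CPM, the count of a gene scaled to the size of its library after TMM normalization. The TMM factors of total RNA ran from 1.025 to 1.071 with GFP LNA and from 0.882 in mouse 10 to 0.998 with SNORA73 LNA. A lower factor gives a higher CPM for the same count and library size. CPM values compare mice for a given gene, and not genes with each other. Gbp6 read 20.1, 21.3, 23.0 and 20.9 CPM in GFP LNA mice 1, 2, 3 and 8, and 7.27 CPM in mouse 9. In SNORA73 LNA mice 4, 6, 11 and 12 it read 11.2, 10.3, 10.3 and 10.6 CPM, and in mouse 10 it read 31.5 CPM. Without mice 9 and 10 the groups of 4 did not overlap, while mouse 9 was the lowest and mouse 10 the highest of all livers. The group means for Gbp6 were 18.5 ± 6.38 CPM with GFP LNA and 14.8 ± 9.36 CPM with SNORA73 LNA (SD, n = 5), and 21.3 ± 1.24 and 10.6 ± 0.453 CPM without mice 9 and 10 (SD, n = 4).

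Gbp10, its neighbour on chromosome 5, had the same layout. It read 6.63, 6.97, 7.82 and 7.70 CPM in GFP LNA mice 1, 2, 3 and 8 and 1.66 CPM in mouse 9. It read 2.56, 2.80, 1.65 and 3.65 CPM in SNORA73 LNA mice 4, 6, 11 and 12 and 7.45 CPM in mouse 10. Mouse 9 thus sat with the SNORA73 LNA livers and mouse 10 with the GFP LNA livers. Because kallisto divides reads among the transcripts they fit, the split between such related genes is uncertain. Counts that were not whole, within a tolerance of 0.01, were found in 19 of 20 libraries for Gbp6 and Gbp10, in 17 for Gbp9 and Irgm1, in 15 for Gbp8 and Irgm2 and in 13 for Igtp. These 7 of 10 genes had them in at least 10 libraries, against 31.7% of 13519 genes tested in either RNA.

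Of the regulatory immunity-related genes, Irgm2 read 46.3, 54.4, 53.1 and 46.2 CPM in GFP LNA mice 1, 2, 3 and 8 and 29.7 CPM in mouse 9. Against this, SNORA73 LNA mice 4, 6, 11 and 12 read 35.2, 34.5, 33.5 and 38.8 CPM, and mouse 10 read 54.6 CPM. Irgm1 is known for its part in autophagy and mitochondrial quality. It read 67.8, 70.2, 80.1 and 80.8 CPM in GFP LNA mice 1, 2, 3 and 8 and 57.4 CPM in mouse 9, and 59.6, 59.8, 56.9 and 55.1 CPM in SNORA73 LNA mice 4, 6, 11 and 12 and 99.5 CPM in mouse 10. Igtp read 16.5, 24.7, 27.4, 19.4 and 10.8 CPM in GFP LNA mice 1, 2, 3, 8 and 9. It read 14.2, 14.7, 26.6, 13.8 and 16.6 CPM in SNORA73 LNA mice 4, 6, 10, 11 and 12. For Igtp the groups overlapped slightly even without mice 9 and 10, since GFP LNA mouse 1 lay below SNORA73 LNA mouse 12.

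The remaining genes are given by their means over all 10 mice. Gbp3, of the chromosome 3 group, had 4.88 ± 1.499 CPM with GFP LNA and 3.58 ± 0.834 CPM with SNORA73 LNA (SD, n = 5). Gbp9 had 2.30 ± 0.505 and 1.66 ± 0.278 CPM. Gbp7, linked to the NADPH oxidase in phagocytes, had 19.9 ± 3.08 and 18.4 ± 4.43 CPM, Gbp2 had 3.78 ± 1.23 and 3.59 ± 1.21 CPM, and Gbp8 had 1.30 ± 0.280 and 1.41 ± 0.372 CPM. In these 5 genes the groups overlapped with and without mice 9 and 10. The lowest count behind any total RNA value was 28 for Gbp8 and Gbp9 and the highest 3568 for Irgm1, so the lower genes rest on few reads.

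**Figure D1:**
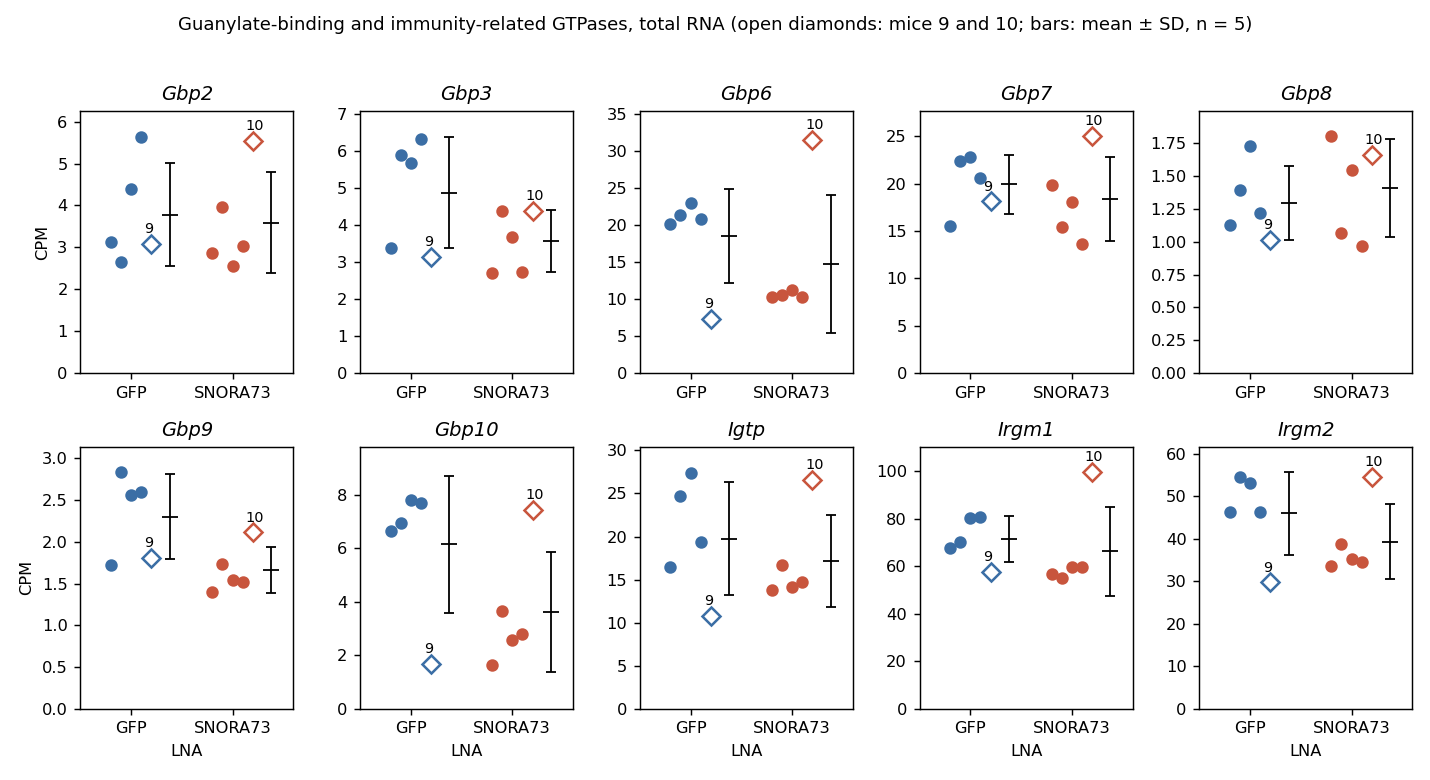
CPM of each gene in total RNA (vertical axes, from 0) by LNA group (horizontal axes), with 1 point per mouse, open diamonds for mice 9 and 10, and bars for the mean ± SD of 5 mice. For Gbp6 the diamond of mouse 9 lies at 7.27 CPM below all other livers and that of mouse 10 at 31.5 CPM above them.

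As a description, since this contrast chose the family, 9 of 10 genes had a log2 fold change (SNORA73 over GFP LNA) below 0 over 10 mice, against 48.3% of all 13195 genes tested. The range was -0.77 for Gbp10 (SE 0.42) to 0.10 for Gbp8 (SE 0.23), with a median of -0.21, against 0.01 over all genes. None was called at an FDR under 0.05, where edgeR called 0.0303% of all genes. Without mice 9 and 10, 10 of 10 lay below 0, against 48.7% of all genes, with a median of -0.53. Gbp10 was then at -1.43 (SE 0.19), Gbp6 at -1.01 (SE 0.09), Gbp3 at -0.65 (SE 0.22), Gbp9 at -0.64 (SE 0.20), Igtp at -0.57 (SE 0.15), Irgm2 at -0.49 (SE 0.09), Irgm1 at -0.37 (SE 0.09), Gbp2 at -0.33 (SE 0.24), Gbp7 at -0.29 (SE 0.15) and Gbp8 at -0.05 (SE 0.25). The 3 genes called were those that chose the family, while 0.161% of all genes were called lower. Irgm2 lay just inside that threshold and Irgm1, at -0.37, outside it. When scaled to library totals rather than TMM, the median of all genes moved to -0.14 and that of the 10 genes over 10 mice to -0.37, and Gbp8 changed sign to -0.05.

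The part of mice 9 and 10 can be counted. In total RNA, mouse 9 lay below the other 4 GFP LNA mice for 7 of 10 genes, against 25.9% of all genes, and mouse 10 above the other 4 SNORA73 LNA mice for 8 of 10, against 28.9%. Both held for Gbp6, Gbp10, Igtp, Irgm1 and Irgm2, against 6.58% of all genes. No gene of the 10 had groups apart over all 10 mice (1.80% of all genes). Over 8 mice the SNORA73 LNA group lay entirely below the GFP LNA group for Gbp6, Gbp10, Irgm1 and Irgm2, against 3.15% of all genes. These counts restate the contrast that chose the family.

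Polysome RNA is the fraction of messenger RNA that sediments with several ribosomes, and it came from the same livers, so it is a second measurement of these mice and not an independent set of animals. Gbp6 read 12.04, 14.4, 11.6, 8.68 and 4.19 CPM in polysome RNA of GFP LNA mice 1, 2, 3, 8 and 9. It read 5.52, 6.77, 18.6, 5.96 and 4.62 CPM in SNORA73 LNA mice 4, 6, 10, 11 and 12. Again mouse 9 was the lowest and mouse 10 the highest of all livers, and the other mice fell into groups that did not overlap.

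Irgm2 in polysome RNA read 32.6, 40.7, 38.5, 29.4 and 18.1 CPM in GFP LNA mice 1, 2, 3, 8 and 9, and 27.2, 26.4, 34.5, 17.8 and 27.0 CPM in SNORA73 LNA mice 4, 6, 10, 11 and 12. Irgm1 read 55.2, 58.3, 67.7, 57.9 and 40.8 CPM against 45.1, 44.2, 79.5, 36.6 and 38.5 CPM in the same order of mice. Igtp read 20.3, 33.9, 31.3, 25.8 and 18.1 CPM against 17.6, 19.5, 31.0, 19.0 and 18.5 CPM. Without mice 9 and 10 the groups were apart for all 3 of these genes, for Igtp by less than 1 CPM. Gbp10 read 2.40, 6.68, 5.60, 2.91 and 1.41 CPM with GFP LNA and 1.12, 3.10, 4.36, 0 and 2.12 CPM with SNORA73 LNA. The 0 was mouse 11, where a count of 0 still allows up to 0.164 CPM (3 counts, counting error only), and the groups overlapped through mouse 6.

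**Figure D2:**
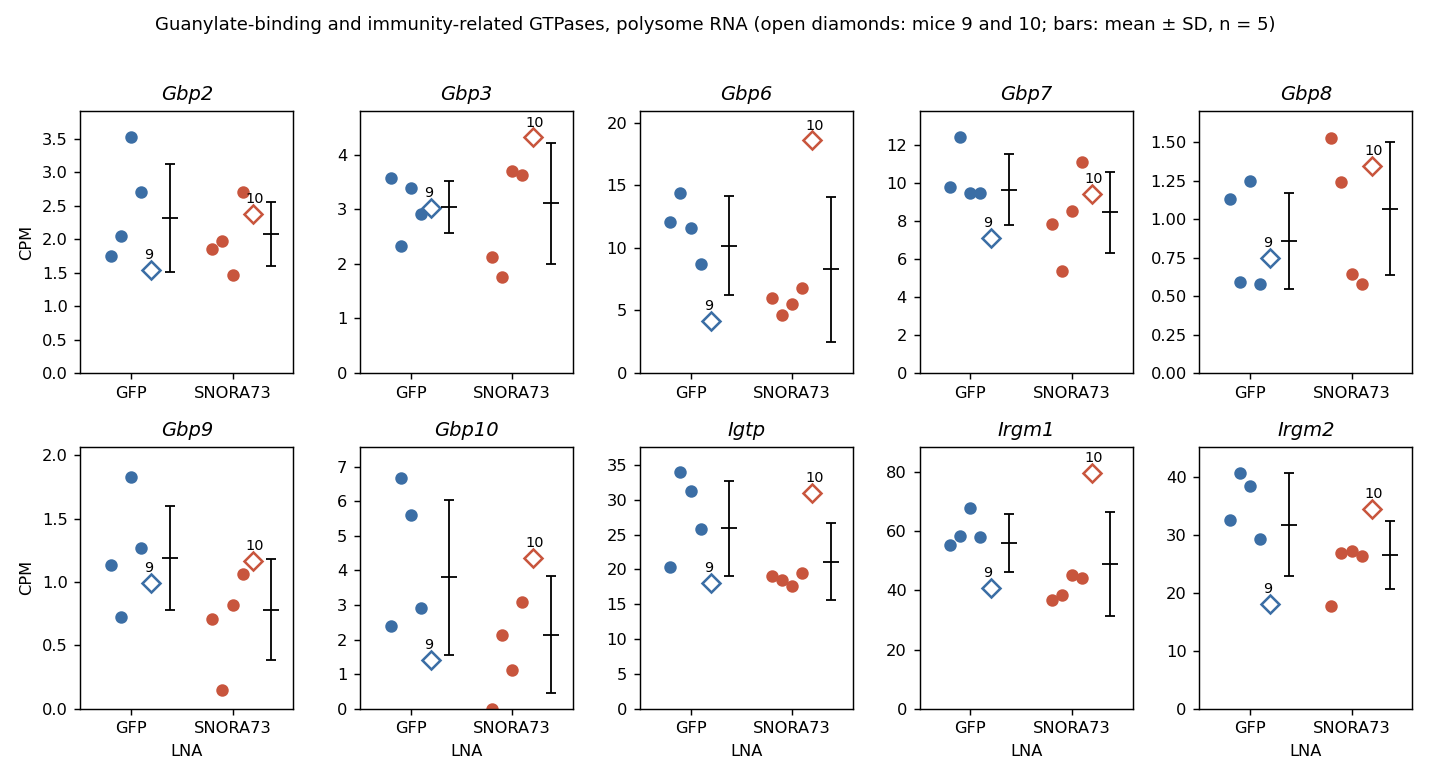
CPM of each gene in polysome RNA (vertical axes, from 0) by LNA group (horizontal axes), with 1 point per mouse, open diamonds for mice 9 and 10, and bars for the mean ± SD of 5 mice. For Irgm1 mouse 10 lies at 79.5 CPM above all other livers, and mouse 9 at 40.8 CPM lies among the SNORA73 LNA mice.

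Over 10 mice no gene of the family passed the test in polysome RNA at an FDR under 0.05 in edgeR, limma-voom or DESeq2, where edgeR called 0.0153% of 13060 genes, and 0 of 10 had an unadjusted p under 0.05, against 13.4% of all genes. The log2 fold change was below 0 for 8 of 10 genes (51.4% of all genes), with a median of -0.23, against -0.01 over all genes. Gbp10 was at -0.81 (SE 0.66), Gbp9 at -0.58 (SE 0.43), Gbp6 at -0.29 (SE 0.40), Igtp at -0.29 (SE 0.20), Irgm2 at -0.26 (SE 0.21) and Irgm1 at -0.20 (SE 0.21). Gbp7 at -0.19 (SE 0.21), Gbp2 at -0.15 (SE 0.27), Gbp3 at 0.04 (SE 0.25) and Gbp8 at 0.29 (SE 0.38) made up the rest. With library totals Gbp3 changed sign to -0.11.

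Without mice 9 and 10, 9 of 10 log2 fold changes were below 0 (50.6% of all genes), the median was -0.52, and none passed the FDR in edgeR or limma-voom, where edgeR called 0.242% of 12825 genes. Mice 9 and 10 were set aside because they ran against their groups for these same genes in the same livers, so the values over 8 mice are a description and no test of the family. At an unadjusted p under 0.05 there were 4, namely Gbp6, Igtp, Irgm1 and Irgm2, where 14.0% of all genes had such a p, a count that this choice of mice favours. Gbp6 was at -1.02 (SE 0.21), Irgm1 at -0.53 (SE 0.13), Igtp at -0.57 (SE 0.16) and Irgm2 at -0.51 (SE 0.17). Gbp10 was at -1.45 with a wider error (SE 0.68).

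**Figure D3:**
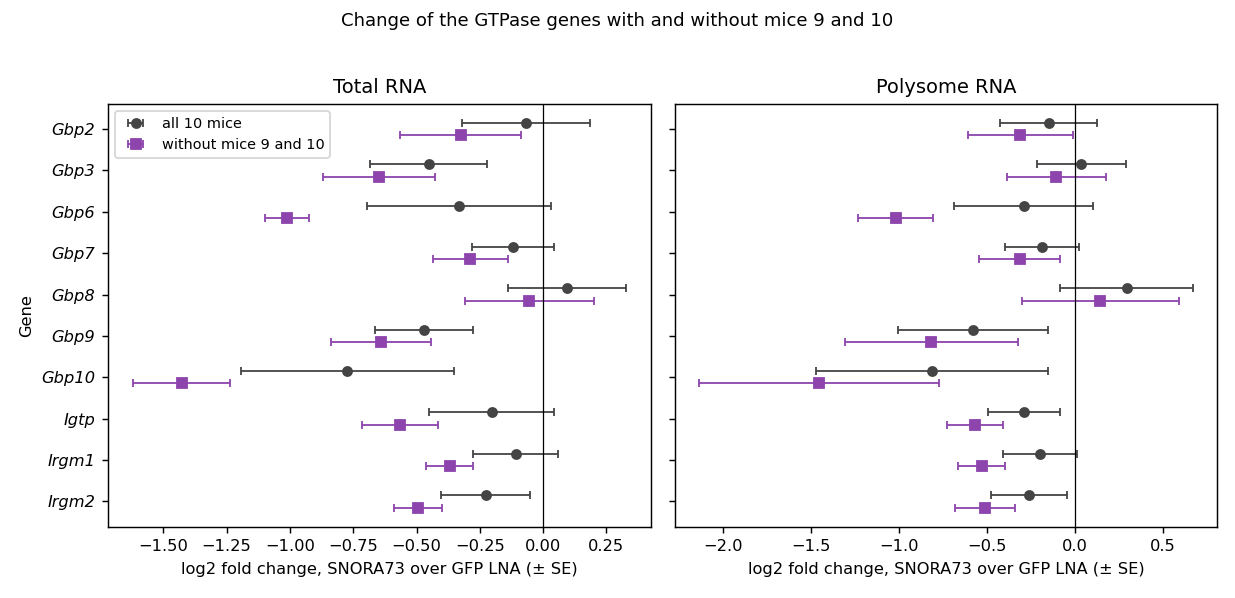
Log2 fold change of SNORA73 over GFP LNA (horizontal axes) for each gene (vertical axis) in total RNA on the left and polysome RNA on the right, with error bars of 1 SE, circles for all 10 mice and squares for the 8 mice without mice 9 and 10. In both kinds of RNA the squares of Gbp6 (-1.01 and -1.02) and Gbp10 (-1.43 and -1.45) lie to the left of their circles.

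The same count of mice in polysome RNA put mouse 9 below the other 4 GFP LNA mice for 7 of 10 genes (26.2% of all genes) and mouse 10 above the other 4 SNORA73 LNA mice for 7 of 10 (19.3% of all genes). Both held for Gbp6, Gbp10, Igtp, Irgm1 and Irgm2 (4.92% of all genes). No gene had groups apart over all 10 mice (3.20% of all genes), and over 8 mice the SNORA73 LNA group lay entirely below for Gbp6, Igtp, Irgm1 and Irgm2 (3.62% of all genes). The counts for mouse 9, for mouse 10 and for both, and the count over 8 mice, are likewise favoured by the choice of mice.

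Most of the 10 genes varied together from mouse to mouse. The mean log2 CPM of all 10, after centring each gene on its mean over mice, was highest in mouse 10 (0.50) and in GFP LNA mice 3 (0.46), 8 (0.36), 2 (0.31) and 1 (0.01) in total RNA. It was lowest in mouse 9 (-0.48), followed by SNORA73 LNA mice 6 (-0.38), 11 (-0.36), 4 (-0.26) and 12 (-0.16). In polysome RNA mice 3 (0.57), 10 (0.53), 2 (0.31), 1 (0.17) and 8 (0.14) were again the 5 highest, followed by mouse 6 (0.04). Mice 4 (-0.27), 9 (-0.35), 12 (-0.46) and 11 (-0.68) were the lowest. The members are not replicates, and this level is a description of each liver with no test.

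**Figure D4:**
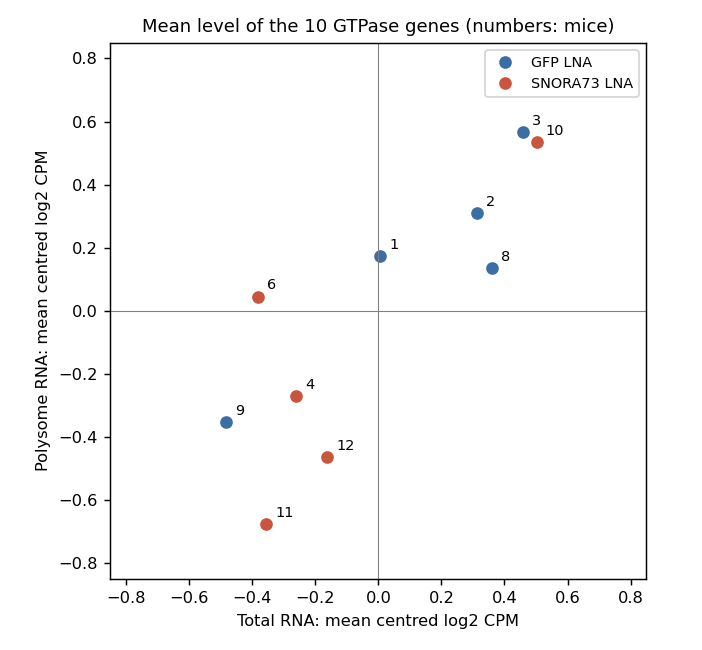
Mean centred log2 CPM of the 10 genes in total RNA (horizontal axis) and in polysome RNA (vertical axis), with 1 point per mouse, coloured by LNA and numbered. Mouse 10 lies with the GFP LNA mice at 0.50 and 0.53, and mouse 9 with the SNORA73 LNA mice at -0.48 and -0.35.

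Some members followed that common level closely and others did not. Across the 10 total RNA libraries, which share their LNA groups and mice, Irgm2 had the closest relation to the mean of the other 9 genes (Pearson r = 0.95) and Gbp8 the loosest (r = 0.37). In polysome RNA the range ran from 0.94 for Irgm1 to -0.20 for Gbp8. Gbp8 rested on 11 to 45 counts per polysome library.

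Among the 5 genes outside the family with the pattern most like it in total RNA were Ifit1, Mtrf1l, Parp9 and Ube2l6, out of 13185 genes compared by Pearson r over 10 libraries. Ifit1, which binds foreign RNA, had r = 0.97 in total and 0.76 in polysome RNA. Parp9 had r = 0.93 and 0.94, and Ube2l6, an enzyme that conjugates ISG15, had r = 0.93 and 0.88. Mtrf1l, a mitochondrial release factor, had r = 0.95 in total RNA and -0.45 in polysome RNA, so its likeness did not carry over to the second measurement.

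The ratio of polysome to total RNA did not itself enter the choice of the family, but it contains the total RNA values that did. This ratio compares the share of a messenger RNA among polysome reads with its share among all reads of the same liver. Igtp was higher in polysome than in total RNA in 10 of 10 livers, by 0.16 to 0.74 on the log2 scale. The adjoining Irgm2 was lower in 10 of 10, by -0.91 to -0.37, and so was Irgm1, by -0.63 to -0.24. Gbp2, Gbp6, Gbp7 and Gbp9 were also lower in 10 of 10 livers, Gbp10 in 9, Gbp8 in 8 and Gbp3 in 7. The log2 difference for Gbp7 ran from -1.51 to -0.29, the lowest median of the 10 at -1.19.

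**Figure D5:**
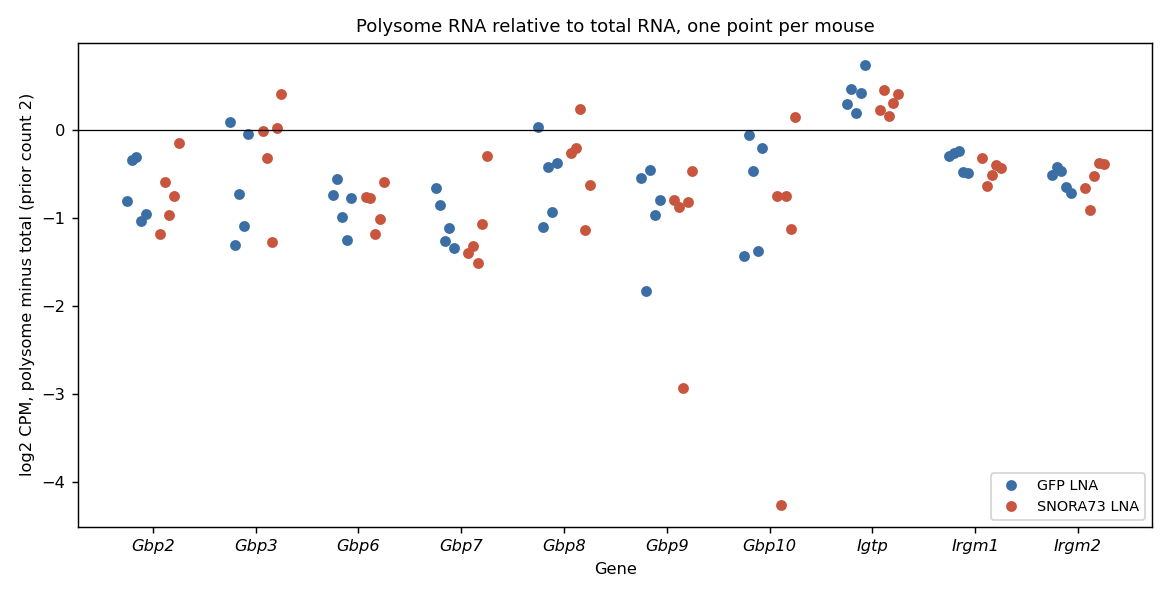
Log2 CPM of polysome minus total RNA of the same liver (vertical axis, prior count of 2) for each gene (horizontal axis), with 1 point per mouse coloured by LNA. All 10 points of Igtp lie above 0, between 0.16 and 0.74, and all points of Irgm1 and Irgm2 lie below it. The lowest point, at -4.26 for Gbp10, is mouse 11 with 0 polysome counts, and its height depends on the prior count.

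In GFP LNA livers, 9 of 10 genes were lower in polysome than in total RNA (48.4% of all 13795 genes), with a median log2 difference of -0.73 against 0.03 over all genes. With edgeR, 5 were lower at an FDR under 0.05, against 21.0% of all genes. They were Gbp7 at -1.09 (adjusted p = 8.79e-05), Gbp9 at -0.98 (adjusted p = 0.0127), Gbp2 at -0.74 (adjusted p = 0.0283), Gbp3 at -0.72 (adjusted p = 0.0257) and Irgm2 at -0.57 (adjusted p = 0.0311). Without GFP LNA mouse 1, 2 or 3 the number was 3, and without mouse 8 it was 2. Because total and polysome RNA came from the same mouse, the fit was repeated with the mouse as a block. Then 8 were lower, against 27.2% of all genes, with Gbp6 at -0.91 (adjusted p = 7.02e-06), Irgm1 at -0.39 (adjusted p = 0.000358) and Gbp8 at -0.64 (adjusted p = 0.0429) joining them, and Gbp10 at -0.77 just short (adjusted p = 0.0672). Igtp was higher, at 0.38 (SE 0.09, adjusted p = 0.00182 with the block), among the 28.9% of all genes called higher. Without the block it was at 0.35 (adjusted p = 0.258), and its adjusted p over all alternatives ran from 0.00182 to 0.393.

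In SNORA73 LNA livers, 9 of 10 genes were lower in polysome RNA (48.7% of all genes), with a median of -0.68 against 0.02 over all genes. Without the block, 4 were lower, Gbp7 at -1.15 (adjusted p = 7.38e-05 from edgeR), Gbp9 at -1.07 (adjusted p = 0.0124), Gbp2 at -0.81 (adjusted p = 0.0224) and Irgm2 at -0.60 (adjusted p = 0.0287), against 18.2% of all genes. Without SNORA73 LNA mouse 12 the number was 2. With the mouse as a block, Gbp6 at -0.89 (adjusted p = 1.67e-05 from edgeR) and Irgm1 at -0.50 (adjusted p = 6.39e-05) brought this to 6, against 25.1% of all genes. Igtp was higher at 0.27 (SE 0.09, adjusted p = 0.0182 with the block), among 26.0% of all genes, and at 0.27 (adjusted p = 0.411) without it, with a range over alternatives of 0.0182 to 0.552. Gbp10 at -0.95 (adjusted p = 0.0505 with the block), Gbp8 at -0.46 (adjusted p = 0.153) and Gbp3 at -0.25 (adjusted p = 0.436) did not pass. The 4 SNORA73 LNA mice and 4 GFP LNA mice without mice 9 and 10 gave Igtp values of 0.28 (adjusted p = 0.0257) and 0.27 (adjusted p = 0.0235) in the edgeR fit with the block.

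Whether the LNA changed the ratio was tested as the interaction of LNA and RNA over all 20 libraries, a measure that contains the total RNA contrast. None of the 10 genes passed in edgeR, limma-voom or DESeq2, against 0.00725% of all genes in edgeR, and 0 of 10 had an unadjusted p under 0.05 (2.91% of all genes). The interaction was below 0 for 7 of 10 genes (52.4% of all genes), from -0.10 for Gbp9 (SE 0.44) to 0.49 for Gbp3 (SE 0.36, adjusted p = 0.9999 from edgeR), with a median of -0.04. For Igtp it was -0.08 (SE 0.34). With the mouse as a block Gbp3 was at 0.42 (SE 0.35, adjusted p = 0.783 from edgeR) and Igtp at -0.10 (SE 0.12). That Gbp3 passed in GFP LNA livers and not in SNORA73 LNA livers was thus not a tested difference between the groups. The SE of 0.34 for Igtp and 0.36 for Gbp3 without the block gives the precision of this test.

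Other members of these families were measured as well. Gbp11, annotated as a transcribed pseudogene, was at -1.38 (SE 0.50, adjusted p = 0.464 from edgeR) in total and -1.51 (SE 0.58, adjusted p = 0.290) in polysome RNA over 10 mice. Its total RNA ran from 3.42 to 14.0 CPM in the 4 GFP LNA mice and from 1.35 to 2.98 CPM in the 4 SNORA73 LNA mice without mice 9 and 10. Iigp1, an effector of the immunity-related branch, had 539 ± 63.1 CPM with GFP LNA and 493 ± 142 CPM with SNORA73 LNA in total RNA (SD, n = 5), a log2 fold change of -0.13 (SE 0.17). It read 739 CPM in mouse 10, above every other liver.

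Over 10 mice the remaining relatives were at -0.04 (SE 0.32) for Ifi47, -0.10 (SE 0.37) for Tgtp1, -0.22 (SE 0.44) for Tgtp2, 0.20 (SE 0.17) for Irgq, -0.42 (SE 0.32) for Gbp2b and -0.37 (SE 0.23) for Gbp4 in total RNA. Without mice 9 and 10, Gbp11 was at -1.89 (SE 0.46), Tgtp2 at -0.60 (SE 0.45), Gbp4 at -0.55 (SE 0.25) and Ifi47 at -0.54 (SE 0.21). Tgtp1 was then at -0.50 (SE 0.34), Gbp2b at -0.43 (SE 0.36), Iigp1 at -0.36 (SE 0.11), Irgq at 0.02 (SE 0.16) and Gbp5 at 0.52 (SE 0.34). As for the members, values over 8 mice are a description. Gbp5, at 0.86 over 10 mice (SE 0.37, adjusted p = 0.535 from edgeR), had 11 to 34 counts in total RNA. In polysome RNA Gbp5 lay below the filter of the LNA contrast, and its groups did not overlap over 10 mice. Among the 13060 genes that passed that filter, 3.20% had groups apart over 10 mice. Gbp5 had 0 counts in GFP LNA mice 1, 2, 8 and 9 and 7 counts (0.194 CPM) in mouse 3, and 4 to 17 counts (0.293 to 0.765 CPM) in the SNORA73 LNA mice. Its direction was thus opposite to that of most members, at few counts. Its interaction of LNA and RNA did not pass the FDR (2.40, SE 0.86, unadjusted p = 0.0113, adjusted p = 0.9999 from edgeR), and this size depends on how counts of 0 are handled. In polysome RNA over 10 mice, Ifi47 was at -0.07 (SE 0.37), Iigp1 at -0.06 (SE 0.19), Tgtp1 at -0.59 (SE 0.73), Tgtp2 at 0.37 (SE 0.54), Irgq at 0.12 (SE 0.28), Gbp2b at 0.36 (SE 0.55) and Gbp4 at 0.03 (SE 0.35). Without mice 9 and 10, Gbp11 was at -2.11 (SE 0.59), Tgtp1 at -1.77 (SE 0.66), Ifi47 at -0.72 (SE 0.22) and Gbp4 at -0.34 (SE 0.36). Iigp1 was then at -0.26 (SE 0.17), Irgq at 0.10 (SE 0.33), Gbp2b at 0.38 (SE 0.63) and Tgtp2 at 0.57 (SE 0.56). In polysome RNA, SNORA73 LNA mouse 11 had 0 counts of Tgtp1 and 208 of Tgtp2. GFP LNA mouse 2 had 172 and 10. The division of reads between Tgtp1 and Tgtp2 was not tested, so their separate values are uncertain. Of the 9 relatives, 0 passed at an FDR under 0.05 over 10 mice in either RNA with edgeR, and 2 in total RNA (8.65% of all genes) and 1 of the 8 tested in polysome RNA (13.4% of all genes) had an unadjusted p under 0.05.

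The genes through which interferon gamma acts were counted in the same fits. Of a list of 32 genes of this pathway, 28 were tested in total RNA and 15 lay below 0 (48.3% of all genes), with a median of -0.02 over 10 mice and -0.06 without mice 9 and 10. None passed the FDR in edgeR in either RNA, and 1 in total RNA (8.65% of all genes) and 3 in polysome RNA (13.4%) had an unadjusted p under 0.05. Interferon gamma itself (Ifng) reached 5 counts in total RNA and 3 in polysome RNA. The receptor genes Ifngr1 and Ifngr2 were at -0.02 (SE 0.14) and -0.12 (SE 0.20) in total RNA, and the 8 kinases and factors had a median of -0.07.

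Of the targets, the chemokines moved apart from each other without passing the test. In total RNA Cxcl10 was at -0.72 (SE 0.36, adjusted p = 0.630 from edgeR) and Cxcl9 at 0.39 (SE 0.22, adjusted p = 0.678), and the feedback inhibitor Socs3 was at 0.42 (SE 0.74, adjusted p = 0.917). In polysome RNA Ciita, the activator of MHC class II genes, was at -1.14 (SE 0.60, adjusted p = 0.436), Cxcl9 at 0.54 (SE 0.26, adjusted p = 0.391) and Cxcl11 at 0.71 (SE 0.29, adjusted p = 0.314), each from edgeR. Without mice 9 and 10, Cxcl10 was at -0.21 (SE 0.26), Cxcl9 at 0.22 (SE 0.18) and Socs3 at -0.36 (SE 0.76) in total RNA. In polysome RNA Cxcl10 was then at 0.04 (SE 0.28), Ciita at -0.85 (SE 0.59), Cxcl9 at 0.63 (SE 0.30) and Cxcl11 at 0.80 (SE 0.33).

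A list of 14 type I interferon genes had a median log2 fold change of -0.24 in total RNA over 10 mice and -0.56 without mice 9 and 10. None passed over 10 mice in edgeR in either RNA, with 1 of 14 in total RNA (8.65% of all genes) and 2 of 14 in polysome RNA (13.4%) at an unadjusted p under 0.05, both near the share of all genes. Over 8 mice 3 were lower in total RNA, against 0.161% of all genes, and 0 in polysome RNA. Usp18, which removes ISG15 and damps type I interferon signalling, was the lowest over 10 mice, at -0.81 (SE 0.26, adjusted p = 0.378 from edgeR) in total and -1.07 (SE 0.32, adjusted p = 0.196) in polysome RNA. This list too had members among the genes seen to fall in these libraries before it was set.

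Marker genes of other liver cell types are given as summed CPM in total RNA. The 7 sinusoidal endothelial markers summed to 118 to 126 CPM in GFP LNA mice 1, 2, 3 and 8 and 145 to 160 CPM in SNORA73 LNA mice 4, 6, 11 and 12, with 145 in mouse 9 and 154 in mouse 10. The 7 Kupffer cell markers summed to 136 to 205 and 125 to 165 CPM in these groups, 217 in mouse 9 and 233 in mouse 10. Endothelial markers were thus higher in SNORA73 LNA mice 4, 6, 11 and 12 than in GFP LNA mice 1, 2, 3 and 8. Mice 9 and 10 lay within the endothelial range of those SNORA73 LNA mice. Kupffer cell markers were highest in mice 9 and 10. The 4 stellate cell markers summed to 211 to 230.0 and 191 to 272 CPM in these groups. They were highest in mouse 9, at 276 CPM, and lowest in mouse 10, at 182 CPM. In polysome RNA both mice, at 200 and 154 CPM, lay within the 149 to 206 CPM of SNORA73 LNA mice 4, 6, 11 and 12.

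The 3 neutrophil markers summed to 2.27 to 6.52 and 1.20 to 4.63 CPM, with 5.43 in mouse 9 and 12.1 in mouse 10. The 7 T and NK cell markers, of which 2 passed the filter in total RNA, summed to 2.22 to 3.12 and 1.63 to 2.94 CPM, and the 3 B cell markers, of which 1 passed, to 1.10 to 1.505 and 0.201 to 0.905 CPM. No marker of these lists was at 0 in every library. Hepatocyte markers summed to 44938 CPM or more in those 8 mice, and to 37072 and 39351 CPM in mice 9 and 10. The part of these cell types in the GTPase values was not tested.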

How the data were processed

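Total and polysome RNA of 10 mouse livers (20 libraries, 5 mice per LNA) was analysed. The deposited table gives an estimated count for each gene. To make it, the authors cleaned paired reads of 100 bp with fastp, removed rRNA reads with bowtie and samtools, estimated transcript counts with kallisto and summed them to genes with tximport. It holds counts before normalization. Counts were rounded to whole numbers, and symbols were matched for 51903 of 53028 genes. Rows with no symbol took at most 2.99% of a library. No column was left without a sample.

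A gene was kept when 4 or more libraries exceeded 0.5 CPM. The main test was edgeR's quasi-likelihood F-test (edgeR 4.0.16, R 4.3.3) on TMM-normalized counts, with Benjamini-Hochberg adjustment over all genes tested and a threshold of 0.05. The SE was derived from the log2 fold change and the F statistic. Total and polysome RNA were fitted apart for the LNA contrast, and the 20 libraries together for polysome against total RNA and for the interaction. The mouse number links both libraries of a liver, and deviations from the group means correlated by 0.13 to 0.64 within every mouse. The fit with the mouse as a block is given where it changed a call. Alternatives were limma-voom (limma 3.58.1), DESeq2 1.42.0, its size factors in edgeR, library totals, other filters, 1 fit of all 20 libraries, each mouse left out, and mice 9 and 10 left out. Limma-voom and the block without mice 9 and 10 were chosen after the data had been seen. The tests were checked on counts simulated with log2 changes of 1. They called 74.6% of the changed genes in total RNA, 52.3% in polysome RNA and 28.4% for the interaction. For polysome against total RNA in GFP LNA livers they called 64.6%. The share of false calls ran from 1.9% in polysome RNA to 5.88% for polysome against total RNA. Each simulated library was drawn independently, with no link between both libraries of a liver, and 194 to 198 of the genes tested were changed. In the measured libraries 5909 of 13795 genes were called for polysome against total RNA with GFP LNA. The simulated shares for that comparison and for the interaction may therefore not hold for these data.

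The family members, gene lists, markers and rules for named genes were chosen with earlier results of these data known. The rule named all 10 members, 9 relatives, the 2 highest and 2 lowest genes of the interferon lists in each LNA contrast, and the 5 genes most like the family by Pearson r. A gene that this rule names is not reported here. Intervals and floors (3 counts) cover counting error only. Separate mice were the replicates. No libraries were identical (highest correlation of log2 CPM 0.987). Promoter sequences came from RefSeq tables of GRCm38.p6, where 6 of 10 members matched. Protein sequences were not used here.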

Additional observations from a re-analysis of the deposited data

Results flagged for a closer look

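Within the 40 groups of 5 livers tested for a value far from the other 4 (10 genes, 2 kinds of RNA, 2 LNAs), 9 were found. All were mouse 9 or mouse 10. Chance gives about 1 in 20 groups for genes chosen without regard to these values, a rate that does not apply here, since the family was chosen after its genes were seen to fall once those mice were left out. Mouse 10 stood above the other SNORA73 LNA mice for Gbp6 (31.5 CPM in total and 18.57 CPM in polysome RNA), for Irgm1 (99.48 and 79.51 CPM), for Igtp (26.57 and 30.99 CPM) and for Irgm2 (54.6 CPM in total RNA). Mouse 9 stood below the other GFP LNA mice in total RNA for Gbp6 (7.275 CPM) and Gbp10 (1.665 CPM). The genes named here vary together, so these are not 9 independent events.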

How the results depend on the processing

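In total RNA no member was called over 10 mice under any alternative except without mice 9 and 10, where edgeR and limma-voom each called 3, and in polysome RNA none was called under any. Leaving out 1 mouse moved the members called in polysome against total RNA over 2 to 7 in GFP LNA livers and 2 to 5 in SNORA73 LNA livers. The mouse as a replicate block gave 9 and 7 called, and 8 and 7 without mice 9 and 10. It changed no call of the interaction. In polysome RNA Gbp3 changed sign with library totals (-0.1063), limma-voom (-0.0059), without mice 9 and 10 (-0.1061) and in limma-voom without them (-0.1501), and ranged from -0.1051 to 0.1871 with 1 mouse left out, as Gbp2 did from -0.2650 to 0.0602. The interaction of Igtp changed sign without mice 9 and 10 (0.0122, and 0.0120 with the block), and that of Gbp9 ranged from -0.3131 to 0.1582 with 1 mouse left out. Gbp3 in polysome against total RNA of SNORA73 LNA livers ranged from -0.3744 to 0.0087. The causes were not tested. Over all genes, total RNA had 4 calls, against 75 in DESeq2, 13 without the filter, 2 with the strict filter, 2 with library totals, 97 without mice 9 and 10, over 97 in limma-voom without them, and 1 to 59 with 1 mouse left out (59 without mouse 9). Polysome RNA had 2, against 281 in DESeq2, 317 in the fit of all 20 libraries, 72 and 31 with the looser and stricter filter, 0 with library totals, 31 without mice 9 and 10, 28 in limma-voom without them, and 0 to 17 with 1 mouse left out. The interaction had 1, against 7 in DESeq2 and 0 in limma-voom, with the strict filter and without mice 9 and 10. Gbp8, Gbp9 and Gbp10 did not pass the strict filter in every fit. Low counts limit Gbp8, Gbp9 and Gbp10, and uncertain division of reads among related transcripts limits the 7 members with non-whole counts.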
